A study of Mus musculus with 18 samples.

Results

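The proteasome genes of the mouse kidney were followed through ischemia/reperfusion (I/R) injury in mice lacking *Myc* or *Cxcl12* in the renal tubules. The members were all protein-coding genes whose symbol begins with Psma, Psmb, Psmc, Psmd, Psme, Psmf or Psmg and a number, without the interferon-inducible *Psmb8* and *Psmb9*. This gave 48 of 45706 genes in the count files. Of these, 31 encode the stoichiometric subunits of the 26S proteasome. The remaining 17 comprise 3 tissue-restricted or inducible core subunits, 3 chaperones of the base, 4 chaperones of the core, 5 activators and inhibitors, *Psme2b*, a copy of *Psme2* at another locus, and *Psmc3ip*, which carries the symbol but encodes a factor of meiotic recombination. 4 processed pseudogenes with proteasome names were left out by the rule.

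RNA of whole kidneys was sequenced from 4 groups: Cxcl12 KO (n = 5), Cxcl12 control (n = 3), Myc KO (n = 5) and Myc control (n = 5), 18 kidneys in all. KO mice were Cxcl12 fl/fl or Myc fl/fl and carried Pax8rtTA and TetOCre, so that doxycycline switches on Cre recombinase in Pax8-expressing tubular cells. The controls carried the same floxed allele and Pax8rtTA but lacked TetOCre. All were male mice that began doxycycline at 6 to 8 weeks of age, received it for 2 weeks, waited 1 week, and at a stated age of 10 to 12 weeks underwent 22.5 min of bilateral renal ischemia and were examined after 12 h of reperfusion. All groups had thus been injured, and no uninjured kidney was analysed here. Endothelial, stromal and immune cells of a KO kidney keep the floxed gene. The labels number the kidneys within a group but do not name the mouse, and the p-values below measure the spread between these samples.

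The 26S proteasome degrades proteins tagged with ubiquitin. Its 20S core is a barrel of stacked rings of alpha and beta subunits. *Psmb5*, *Psmb6* and *Psmb7* encode the beta subunits with the chymotrypsin-like, caspase-like and trypsin-like protease activity. The 19S cap holds a base, in which *Psmc* ATPases unfold the substrate, and a lid, in which *Psmd14* encodes the enzyme that removes ubiquitin. The *Psmg* chaperones build the core and *Psmd5*, *Psmd9* and *Psmd10* help to build the base. *Psme1* to *Psme4* encode caps that open the core without ubiquitin, and *Psmf1* an inhibitor of the core. When proteasome activity fails, the transcription factor NFE2L1 raises the transcription of most subunits together through antioxidant response elements (ARE). MYC with its partner MAX binds the E-box.

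The promoters of the members were searched for both motifs, which the choice of members did not use. A promoter entry of RefSeq (GRCm38.p6), reaching from 250 bases before to 50 after the transcription start, was matched by symbol for 40 of the 48 genes. The E-box CACGTG stood in 4 of the 40 (10%), against 8.09% of 27025 genes with an entry. The core of the ARE, TGANNNNGC on either strand, stood in 22 (55%), against 45.0% of all genes, and CCAAT, the letters bound by NF-Y, in 14 (35%), against 41.1%. A match is a description of the letters and not a binding site. The 4 promoters with an E-box are printed because 1 belongs to *Psme3*, whose level changed in Myc KO, and those of *Psmb5* and *Psmb6* because an ARE core lay before the start of these catalytic genes. *Psmb7* and *Psmg2* were among the 8 genes that were not searched. The promoters of *Psmg1*, *Psmg3* and *Psmg4* held no E-box. *Psma4*, *Psmb10* and *Psmd9*, which held it, had log2 fold changes of −0.32, −0.37 and −0.09 in Myc KO. The printed stretches run 5′ to 3′ on the strand of the gene, with the motif in capitals.
Psme3, E-box 44 bases before the start, chr11:101316139-101316194, plus strand: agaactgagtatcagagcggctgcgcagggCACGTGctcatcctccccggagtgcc
Psma4, E-box 140 bases before the start, chr9:54950689-54950744, plus strand: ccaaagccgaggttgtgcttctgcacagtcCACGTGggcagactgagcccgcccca
Psmb10, E-box 116 bases before the start, chr8:105938483-105938538, minus strand: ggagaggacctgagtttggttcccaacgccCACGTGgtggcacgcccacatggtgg
Psmd9, E-box 51 bases before the start, chr5:123228109-123228164, plus strand: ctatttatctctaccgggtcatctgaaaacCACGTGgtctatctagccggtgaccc
Psmb5, ARE core 47 bases before the start, chr14:54618014-54618072, minus strand: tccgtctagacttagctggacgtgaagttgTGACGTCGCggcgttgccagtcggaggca
Psmb6, ARE core 9 bases before the start, chr11:70525318-70525356, plus strand: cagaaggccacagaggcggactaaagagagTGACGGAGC

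The 46 members other than *Psma8* and *Psmb11* were expressed well enough to be tested. Per gene length, in TPM (transcript units, scaled by gene length and to the same total in each kidney) averaged over the 18 kidneys, the highest were *Psmb4* at 314 TPM (range 222 to 399), *Psma6* at 292 TPM (247 to 344) and *Psmc5* at 263 TPM (207 to 311). These ranges overlap, and no order among the 3 can be drawn from them. *Psmc3*, *Psmc1* and *Psmd8* followed, with means between 193 and 203 TPM. The catalytic genes stood at 174 TPM for *Psmb6*, 140 TPM for *Psmb5* and 111 TPM for *Psmb7*. The length used was that of all annotated exons of a gene joined. It was 3421 bases for *Psmb7*, 1872 for *Psmb6* and 899 for *Psmb5*. The longest coding transcripts had 1160, 798 and 899 bases, so no order among these 3 genes can be drawn. The same limit holds for the other members. The joined length was 2952 bases for *Psma1* and 1234 for *Psma6*, with longest coding transcripts of 1201 and 1042 bases. For *Psmg3* and *Psmg4* it was 2893 and 555 bases, against 883 and 555. The order of the members in TPM thus depends on the length used. The inducible *Psmb10*, which replaces *Psmb7* in the immunoproteasome, reached 26.2 TPM (18.8 to 34.8), below the lowest kidney of *Psmb7* at 80.6 TPM. The core chaperones ranged from *Psmg4* at 50.1 TPM to *Psmg3* at 7.59 TPM. *Psma8*, the testis form of an alpha subunit, stood at 0.322 TPM with 1 to 9 reads in a kidney, and *Psmb11*, the thymus form of the chymotrypsin-like subunit, at 0.0149 TPM with 0 to 2 reads.

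Equal TPM was not found among subunits that enter the particle in equal number. Within the alpha ring, mean TPM ran from 22.5 for *Psma3* to 292 for *Psma6*. Counted reads map to 1 place, however, and 88.4% of the *Psmb5* transcript, 76.5% of *Psma5*, 80.7% of *Psmb3*, 82.0% of *Psmc1* and 98.2% of *Psmd2* matched another gene at 95% identity over at least 100 bases. At least 1 pseudogene was among the partners of each of these 5. *Psme2* and *Psme2b* matched each other over 82.5% and 94.9% of their length, and the share was 66.9% for *Psma4*, 52.7% for *Psmd11* and 32.5% for *Psma3*. The levels of these genes are therefore uncertain, and their part in the comparisons below was not tested.

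**Figure D1:**
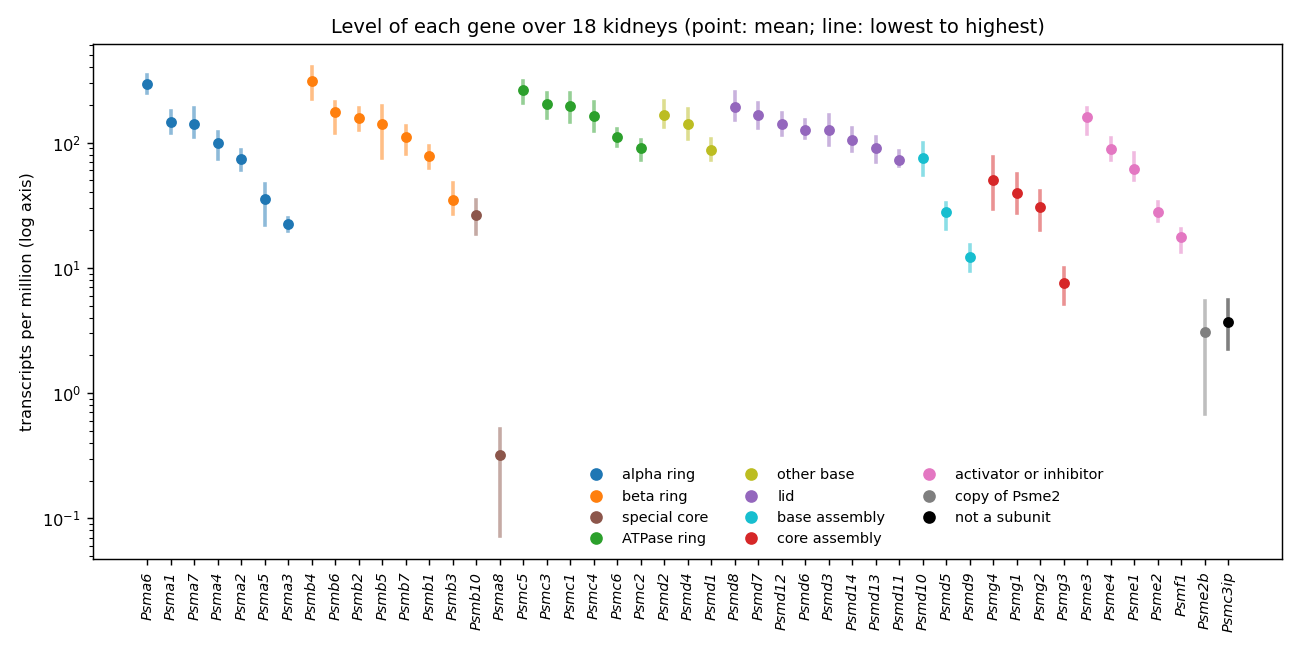
Mean level of 47 proteasome genes in TPM (log axis) over 18 kidneys, coloured by class, with a line from the lowest to the highest kidney. Psmb4 and Psma6 stand highest, and Psma8 lies at 0.322; Psmb11, with 0 in some kidneys, is left out.

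The libraries held 12918220 to 29749500 reads on genes. 6 kidneys were sequenced more deeply and had under 5% unmapped reads: 2 of Cxcl12 KO, 2 of Myc KO, 2 of Myc control and 0 of Cxcl12 control. They are called the deeper kidneys; the labels give no batch. *Myc* was lower in every Myc KO kidney, with 30.9 ± 3.96 CPM (reads scaled to the effective size of each library; mean ± SD, n = 5) against 94.5 ± 14.2 in controls (log2 fold change −1.61). *Cxcl12* was lower in every Cxcl12 KO kidney, with 32.4 ± 6.04 against 53.9 ± 7.88 CPM (n = 5 and 3), although its adjusted p was 0.094 in edgeR and 0.0017 in DESeq2. In all marker lists of tubule, podocyte, endothelial, stromal, immune and injury genes, no gene was at 0 over a whole group, so the defining genes of the labelled tissue were present. The lymphocyte markers *Cd3e*, *Cd79a*, *Ms4a1* and *Nkg7* had 0 to 10 reads in a kidney.

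Proteasome genes were lower in Myc KO kidneys than in their controls, by small amounts. Of 46 members tested, 3 fell and 0 rose at an adjusted p under 0.05, namely the core chaperones *Psmg1* and *Psmg2* and the activator *Psme3*. Across all genes tested, 1.29% fell and 0.355% rose. The fitted log2 fold change was below 0 in 44 of the 46, against 50.1% of all genes. The median was −0.22, with quartiles of −0.29 and −0.16, against −0.0008 over all genes and −0.01 over 7887 genes of similar abundance. At an unadjusted p under 0.05, 22 members were lower, against 11.2% of all genes in that direction. In whole kidneys, fewer cells of a type and less RNA per cell cannot be told apart.

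With DESeq2, 11 members were lower at an adjusted p under 0.05, against 4.35% of all genes, and these included the same 3. Each KO kidney lay below each control kidney for 10 members, against 3.74% of all genes, and 0 members had each KO kidney above each control, against 2.12%. These 10 were *Psmg1*, *Psmg2*, *Psme3*, *Psmd5*, *Psmd14*, *Psmb10* and the alpha subunits *Psma1*, *Psma3*, *Psma5* and *Psma6*. The 3 calls were sensitive to single kidneys. Leaving out any of the 5 KO kidneys, or control 2, 4 or 5, left 0 members past the threshold. Without control 1 there were 2, and without control 3 there were 7. The shares of all genes called in these fits are not given here, so the moves cannot be read as particular to the members.

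**Figure D2:**
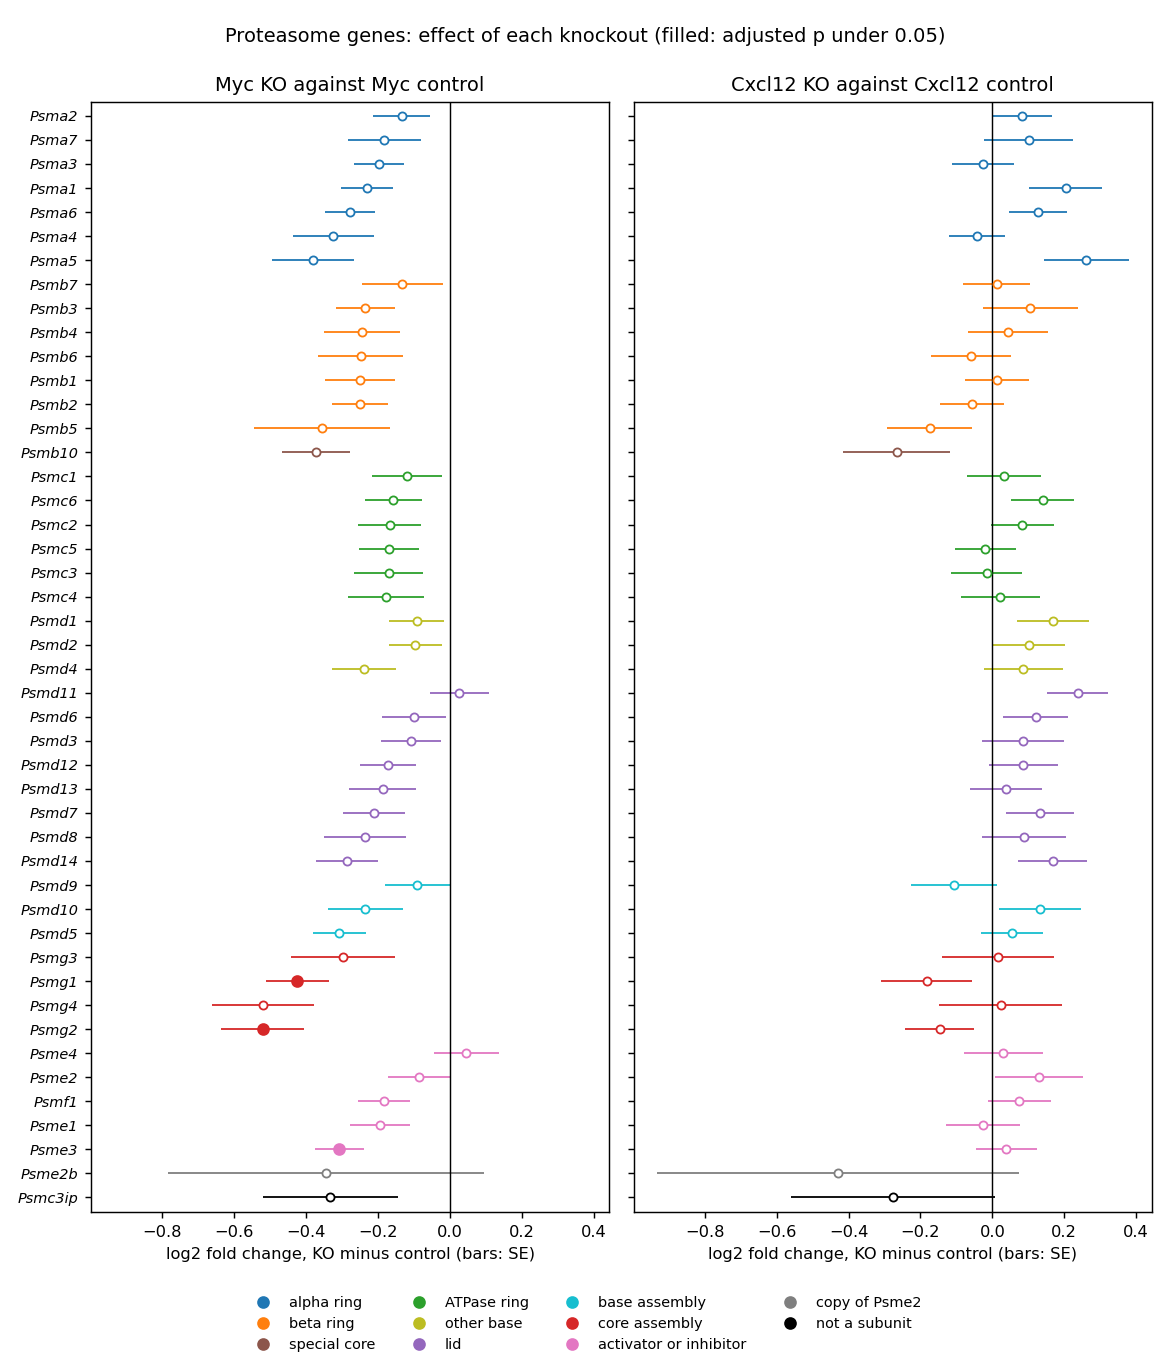
Log2 fold change of 46 proteasome genes (KO minus control; bars, SE of the fit) in the Myc comparison on the left and the Cxcl12 comparison on the right, grouped by class. Filled points passed an adjusted p of 0.05; Psmg1, Psmg2 and Psme3 passed on the left and none on the right, and 44 of 46 points on the left lie below 0 against 14 of 46 on the right.

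The 4 chaperones of the core showed the largest differences as a class, with a median log2 fold change of −0.47. *Psmg1* (chr16:95979933-95990960, GRCm38), which pairs with *Psmg2* to assemble the alpha ring, stood at 13.5, 12.8, 12.9, 13.6 and 13.3 CPM in Myc KO kidneys 1 to 5. The Myc controls 1 to 5 had 17.9, 19.8, 15.2, 17.9 and 18.01 CPM. The groups did not overlap, the KO kidneys lay close together, and the deeper control 3 was the lowest control. *Psmg1* fell by 0.42 ± 0.09 on the log2 scale (SE; adjusted p = 0.034), a change of −25.4%.

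*Psmg2*, its partner, had 13.3, 11.8, 14.6, 13.1 and 14.4 CPM in the KO kidneys. The controls had 18.5, 21.9, 16.1, 23.0 and 17.1 CPM. Again every KO kidney was below every control, and the controls were more scattered. *Psmg2* fell by 0.52 ± 0.12 on the log2 scale (adjusted p = 0.043), a change of −30.3%. *Psmg4*, which acts with *Psmg3* on the same ring, had 8.35, 6.44, 7.60, 6.80 and 5.85 CPM in the KO kidneys. Its controls had 9.68, 10.96, 7.59, 9.98 and 12.0 CPM. Here the deeper control 3 lay within the range of the KO kidneys, and the log2 fold change of −0.52 ± 0.14 had an adjusted p of 0.085 (0.0205 with DESeq2). *Psmg3* had a log2 fold change of −0.30 ± 0.15 with an adjusted p of 0.25.

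Among the caps and inhibitors, *Psme3* fell and the other 4 did not pass the test. *Psme3* (chr11:101316213-101323537, GRCm38) encodes the nuclear cap PA28 gamma, and its promoter with the E-box is printed above. Its level was 134, 130.1, 139, 123 and 142 CPM in the KO kidneys. In the controls it was 179, 165, 163, 162 and 158 CPM. The groups did not overlap, and in neither was a deeper kidney the lowest. *Psme3* fell by 0.31 ± 0.07 on the log2 scale (adjusted p = 0.046), a change of −19.2%. *Psme4*, the PA200 cap, was 1 of only 2 members with a fitted value above 0 in this comparison, at 0.05 ± 0.09 (adjusted p = 0.80), with 238 to 264 CPM in KO and 211 to 294 CPM in control kidneys. *Psme1*, *Psme2* and *Psmf1* had log2 fold changes of −0.19, −0.09 and −0.18, with adjusted p of 0.20, 0.59 and 0.18.

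In the 20S core, 14 of the 14 constitutive alpha and beta genes had a fitted log2 fold change below 0 and 0 passed the adjusted threshold in edgeR. With the deeper kidneys as a term, edgeR called *Psma4*, *Psma5*, *Psma6*, *Psmb2* and the catalytic *Psmb6* lower, and DESeq2 without that term called *Psma1*, *Psma5*, *Psma6* and *Psmb2* lower. The medians were −0.23 for the alpha ring and −0.25 for the beta ring. *Psma5* had 15.0, 14.7, 10.01, 13.7 and 12.2 CPM in the Myc KO kidneys. Its controls had 15.9, 17.7, 16.6, 18.6 and 16.5 CPM. The groups did not overlap, and the deeper KO kidneys 3 and 5 were the lowest. Its log2 fold change was −0.38 ± 0.11 (adjusted p = 0.10 in edgeR and 0.033 in DESeq2). *Psma6*, the alpha gene with the highest mean TPM, had 117, 108, 108, 110.4 and 109 CPM in the KO kidneys. The controls had 124, 146, 129, 142 and 129 CPM, and no KO kidney reached them. Its log2 fold change was −0.28 ± 0.07 (adjusted p = 0.063 in edgeR and 0.0019 in DESeq2).

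The constitutive catalytic genes *Psmb5*, *Psmb6* and *Psmb7* did not pass in edgeR or DESeq2 without the depth term. *Psmb5* had 42.8, 39.4, 31.7, 32.3 and 24.3 CPM in the Myc KO kidneys and 31.5, 49.0, 32.1, 57.6 and 48.1 CPM in the controls. The groups overlapped, since the deeper controls 1 and 3 were as low as KO kidneys 3 and 4. Its log2 fold change of −0.36 ± 0.19 had an adjusted p of 0.29. *Psmb6* ranged from 80.6 to 115 CPM in KO and from 93.5 to 133 CPM in control kidneys (log2 fold change −0.25 ± 0.12, adjusted p = 0.24). *Psmb7* ranged from 98.6 to 132 and from 108 to 151 CPM (−0.13 ± 0.11, adjusted p = 0.52). The deeper kidneys of both genotypes had lower *Psmb5* and *Psmb7* than every other Myc kidney, at 24.3 to 32.1 against 32.3 to 57.6 CPM for *Psmb5* and 98.6 to 112 against 124 to 151 CPM for *Psmb7*. The deeper kidneys of the Cxcl12 cohort likewise had the lowest *Psmb5*, at 38.8 and 40.9 CPM against 45.97 to 59.2 CPM. The share of members and of all genes that separate the deeper kidneys in this way is not given here. The separation therefore cannot be read as particular to these genes.

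*Psmb10* (chr8:105935735-105938444, GRCm38), an inducible catalytic subunit, had 13.7, 12.4, 13.8, 13.1 and 14.4 CPM in the Myc KO kidneys. The controls had 16.8, 17.7, 14.7, 19.0 and 19.2 CPM. The groups did not overlap, although control 3 lay just above KO kidney 5. The log2 fold change was −0.37 ± 0.10 with an adjusted p of 0.070 in edgeR and 0.0145 in DESeq2. *Psmb8* and *Psmb9*, which encode the other inducible catalytic subunits and are not members, had log2 fold changes of −0.20 ± 0.13 and −0.29 ± 0.19 (adjusted p = 0.39 for both).

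In the 19S cap, 0 subunits passed the adjusted threshold in edgeR. All 6 ATPases were fitted below 0, between −0.12 for *Psmc1* and −0.18 for *Psmc4*, and 0 of them reached an unadjusted p of 0.05. *Psmd1* and *Psmd2*, the large scaffolds of the base, had values of −0.09 and −0.10, and the ubiquitin receptor *Psmd4* a value of −0.24 ± 0.09 (adjusted p = 0.16). In the lid, 7 of 8 genes were fitted below 0. *Psmd14* had 90.1, 85.97, 87.8, 87.0 and 93.5 CPM in KO and 96.8, 127, 97.9, 119.7 and 101 CPM in control kidneys. Its groups did not overlap, with the KO kidneys close together and controls 2 and 4 well above the rest. Its log2 fold change was −0.29 ± 0.09 (adjusted p = 0.11 in edgeR and 0.033 in DESeq2).

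*Psmd11*, a lid subunit, was the exception within the lid. It had 185, 164, 150.5, 153 and 150.1 CPM in Myc KO and 157, 170.2, 164, 142 and 155 CPM in control kidneys. The groups overlapped and KO kidney 1 was the highest of all 10 (log2 fold change 0.03 ± 0.08, adjusted p = 0.87). Of the chaperones of the base, *Psmd5* had 61.0, 61.2, 59.8, 52.9 and 62.1 CPM in KO and 75.8, 73.5, 67.0, 81.5 and 69.5 CPM in control kidneys. All 5 KO kidneys were below all controls (log2 fold change −0.31 ± 0.07, adjusted p = 0.061 in edgeR and 0.0056 in DESeq2). *Psmd10* and *Psmd9* had values of −0.23 and −0.09 (adjusted p = 0.22 and 0.58). *Psmc3ip*, at 1.47 to 2.78 CPM, had a value of −0.33 ± 0.19, and *Psme2b*, at 0.409 to 1.60 CPM, a value of −0.34 ± 0.44 (adjusted p = 0.32 and 0.68).

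**Figure D3:**
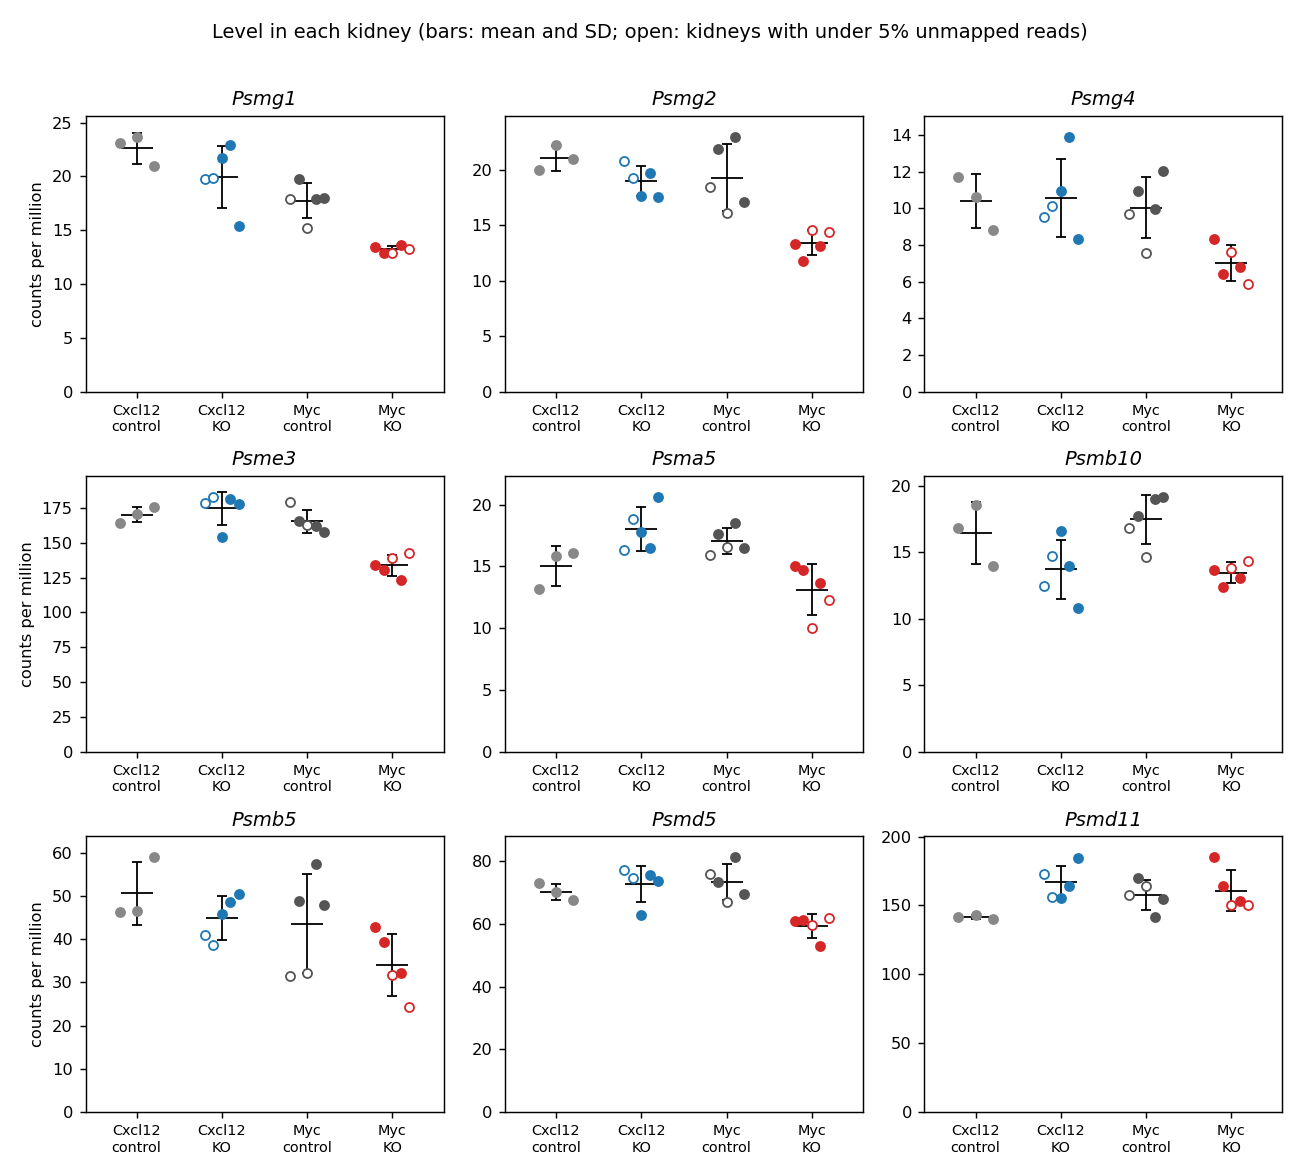
CPM of 9 proteasome genes in each of 18 kidneys; points are kidneys, open where under 5% of reads were unmapped, and bars give the mean and SD of a group. Myc KO kidneys lie below all Myc controls for Psmg1, Psmg2, Psme3, Psma5, Psmb10 and Psmd5, and overlap them for Psmg4, Psmb5 and Psmd11.

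Within a kidney the members tended to be high or low together. Relative to the mean of the Myc controls, the mean log2 level of the 46 genes was −0.07, −0.20, −0.29, −0.22 and −0.32 in Myc KO kidneys 1 to 5 and −0.10, 0.11, −0.13, 0.12 and 0.01 in controls 1 to 5. KO kidney 1 thus lay above the deeper controls 1 and 3, and the groups overlapped. The number of members below the control mean was 24, 42, 45, 43 and 45 of 46 in the KO kidneys and 32, 4, 41, 6 and 24 in the controls. The core chaperones were the lowest of the 8 classes with at least 3 tested genes in each of the 5 KO kidneys, between −0.28 and −0.57, also in KO kidney 1, where the ATPases and the lid stood at 0.04 and 0.05. They were also the lowest class in the deeper Myc control 3, at −0.27, and in Cxcl12 KO kidneys 1 and 5 and Cxcl12 control 3.

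Within each genotype the deeper kidneys had the lower levels. Among the deeper kidneys, the means were −0.29 and −0.32 in KO against −0.10 and −0.13 in control. Among the others, they were −0.07, −0.20 and −0.22 in KO against 0.11, 0.12 and 0.01 in control. KO kidneys were lower within both sets. The median ratio of group means over the 46 members was −0.17 on the log2 scale (n = 2 and 2) within the deeper kidneys and −0.22 (n = 3 and 3) within the others, with 44 of 46 members below 0 in each. With the deeper kidneys as a term in the edgeR fit, 11 members were lower at an adjusted p under 0.05, against 3.96% of all genes. Without the deeper kidneys, 0 members and 8 of all genes passed. The share of reads on no annotated feature also differed, at 6.01, 6.25, 6.82, 6.74 and 7.07% in Myc KO kidneys 1 to 5 and 6.24, 5.77, 6.09, 4.77 and 5.34% in controls 1 to 5. It was highest in the KO kidneys 3, 4 and 5, which had the lowest means of the members, and lowest in control 4, which had the highest. Its part in these levels was not tested.

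**Figure D4:**
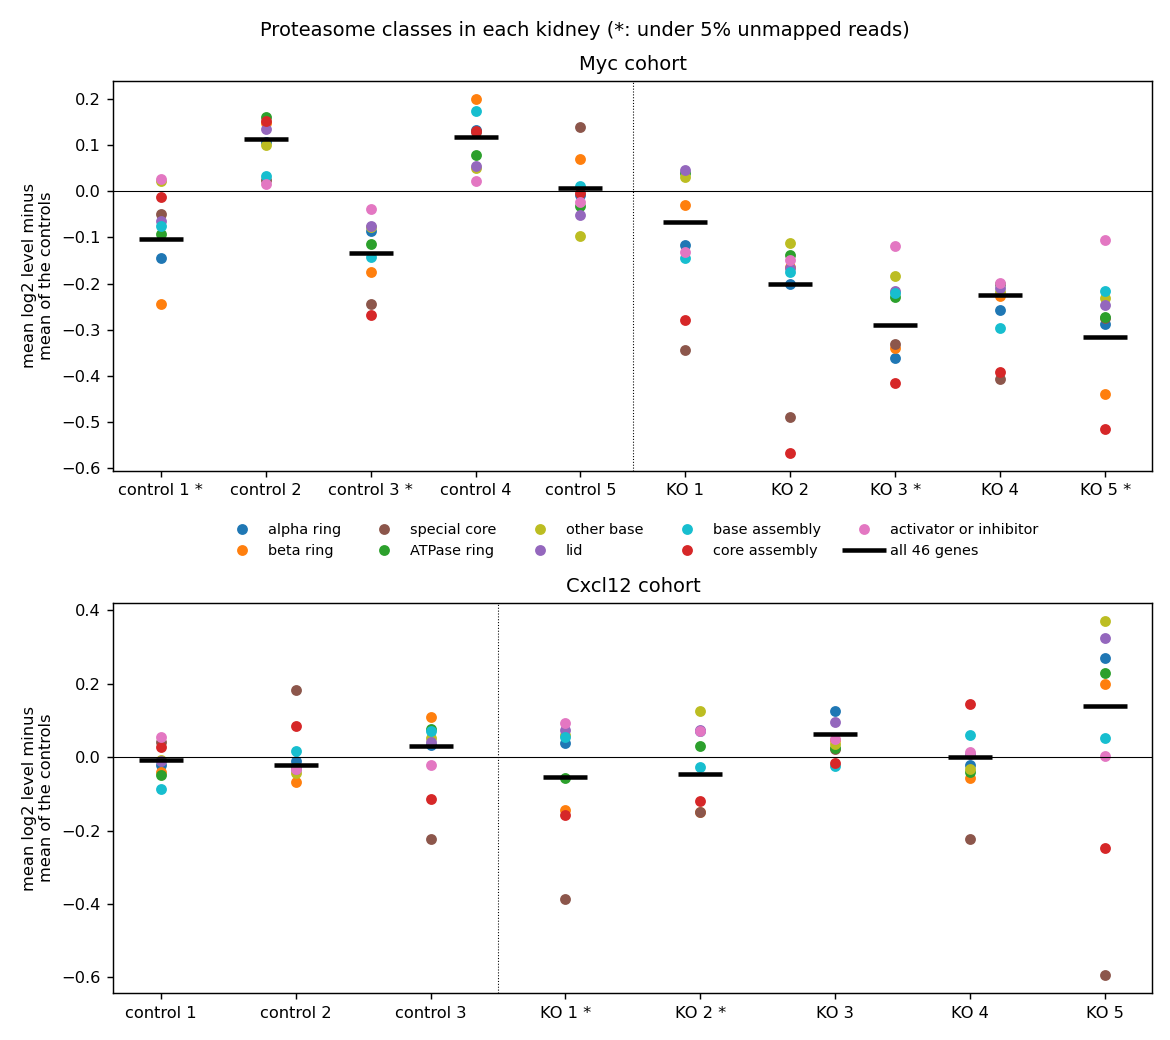
Mean log2 level of each proteasome class (points) and of all 46 genes (black bars) in each kidney, relative to the mean of the controls of its cohort; asterisks mark kidneys with under 5% unmapped reads. The 5 Myc KO kidneys lie at −0.07 to −0.32 against −0.13 to 0.12 in Myc controls, and Cxcl12 KO kidney 5 stands highest of its cohort at 0.14.

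The spread between kidneys of a group was largely common to the subunits. For the 31 subunits of the 26S proteasome, the median within-group SD was 0.14 of the log2 level and 0.09 of the log2 ratio to the mean of the other subunits. The SD was smaller as a ratio for 28 of the 31 (90.3%), against 27.3% of 7885 other genes of similar abundance set against the same mean. *Psma2* and *Psmc3* kept the tightest ratio, with SDs of 0.04. *Psmb5* was the loosest subunit, at 0.22. The SDs of the chaperones *Psmg1*, *Psmg2* and *Psmg4* grew from 0.14, 0.15 and 0.24 as levels to 0.20, 0.18 and 0.26 as ratios, and those of *Psmb10* and *Psme3* from 0.17 and 0.08 to 0.22 and 0.15. Members share libraries and depth, so these are descriptions.

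**Figure D5:**
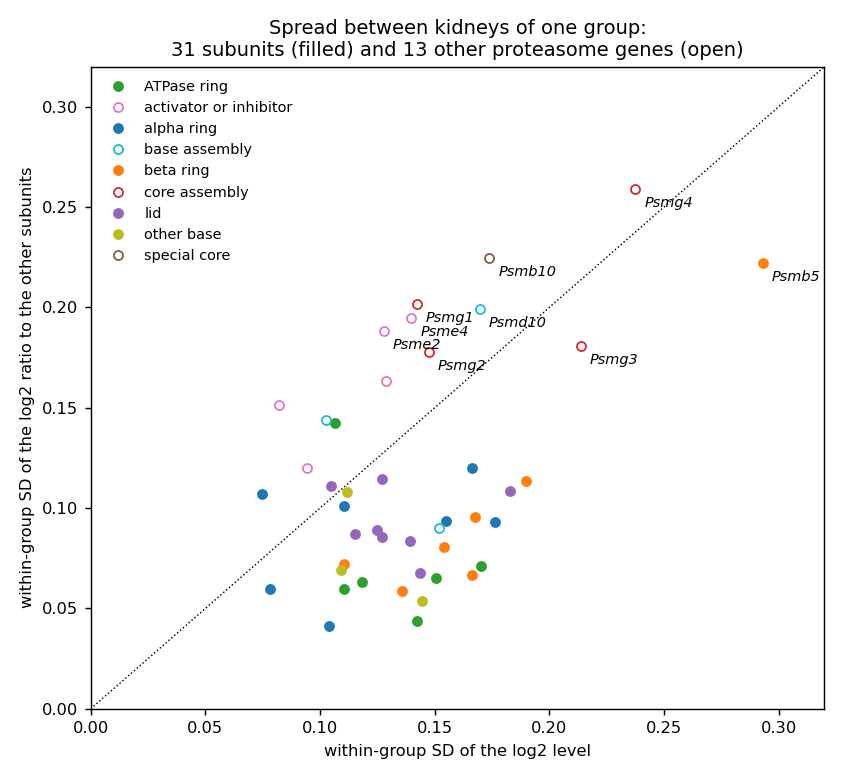
Within-group SD of the log2 level (horizontal) against the within-group SD of the log2 ratio to the other 26S subunits (vertical) for 44 proteasome genes; the dotted line marks equality. Of the 31 subunits (filled), 28 lie under the line, Psmb5 has the widest spread, and the core chaperones other than Psmg3, Psmb10 and the Psme genes (open) lie above it.

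Markers of other cells were read in the same Myc kidneys. The summed level of 12 leukocyte markers was 575 to 950 TPM in Myc KO and 267 to 828 TPM in control kidneys, that of 8 proximal tubule markers 2159 to 3510 and 2483 to 2834 TPM, and that of 3 tubule injury markers 3554 to 4284 and 3176 to 4426 TPM. Each of these ranges overlapped between the groups. The injury sum held *Havcr1*, the kidney injury molecule, with a log2 fold change of −1.32 ± 0.43 (adjusted p = 0.12 in edgeR and 0.076 in DESeq2). The rest of that list, *Lcn2* and *Krt20*, had values of 0.39 and −0.02. Fitted values were above 0 for 7 of 8 proximal tubule, 4 of 4 podocyte and 4 of 5 endothelial markers. The other cell type lists leaned the same way. Values were below 0 for 1 of 6 loop, distal tubule and collecting duct, 1 of 5 stromal and 2 of 8 leukocyte markers tested. Of the injury markers, 2 of 3 were below 0. No marker passed in edgeR, whereas DESeq2 called the endothelial *Cdh5* and *Kdr* and the podocyte gene *Nphs1* higher and the stromal *Col1a1* lower, with log2 fold changes in edgeR of 0.57, 0.48, 0.38 and −0.41. Their part in the proteasome values was not tested.

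In Cxcl12 KO kidneys, the proteasome genes stood near their controls. Of 46 members tested, 0 fell and 0 rose at an adjusted p under 0.05 in edgeR, which called 0.0% of all genes in either direction, and 0 did so in DESeq2, which called 1.35% of all genes lower and 0.99% higher. At an unadjusted p under 0.05 in edgeR, 2 members were higher, against 6.41% of all genes, and 0 were lower. The fitted value was below 0 in 14 of the 46, against 49.8% of all genes, and the median was 0.04. The count of 14 became 23 without KO kidney 5, 25 with library size as the only scaling, 21 with a replicate block and 9 with the deeper kidneys as a term or left out. The median of 0.04 was −0.0005 without KO kidney 5, which had the highest mean of the members (0.14), and −0.01 with library size as the only scaling. Over 7860 genes of similar abundance, the median was 0.02.

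The 2 higher members were *Psma5* and *Psmd11*, and in both each KO kidney lay above each control. This was so for 4.75% of all genes, and for 0 members in the lower direction, against 4.88% of all genes. *Psma5* had 16.3, 18.9, 17.8, 16.5 and 20.7 CPM in Cxcl12 KO and 13.2, 15.9 and 16.1 CPM in control kidneys. KO kidneys 1 and 4 lay just above control 3 (log2 fold change 0.26 ± 0.12, adjusted p = 0.38). *Psmd11* had 173, 156, 156, 164 and 185 CPM in KO and 141, 143 and 139.8 CPM in control kidneys. The controls were close together and every KO kidney lay above them (0.24 ± 0.09, adjusted p = 0.29).

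By class, the lid and the other base subunits were fitted above 0 throughout, with medians of 0.10 in both, and no class had a member past the threshold. *Psma1*, *Psmd1* and *Psmd14* followed with 0.20 ± 0.10, 0.17 ± 0.10 and 0.17 ± 0.10 (adjusted p = 0.42, 0.51 and 0.48). On the other side were *Psmb10* at −0.27 ± 0.15, *Psmg1* at −0.18 ± 0.13, *Psmb5* at −0.17 ± 0.12 and, at very low counts, *Psme2b* at −0.43 ± 0.50 and *Psmc3ip* at −0.28 ± 0.28 (adjusted p from 0.47 to 0.75). *Psmb10* ranged from 10.8 to 16.6 CPM in KO and from 13.997 to 18.6 CPM in control kidneys. *Psme2b* was lowest in the deeper kidneys of every group that held them, at 0.190 to 0.535 CPM against 0.890 to 1.60 CPM in the other 12 kidneys. The share of all genes that separate in this way is not given here. The fitted value of *Psme2b* turned to 0.14 with the deeper kidneys as a term.

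Markers of other cells were also read in the Cxcl12 cohort. No marker passed in edgeR, whereas DESeq2 called *Slc5a12* lower and *Lcn2* higher. The summed proximal tubule markers were 2393 to 2872 TPM in Cxcl12 KO and 2891 to 3508 TPM in control kidneys, 5 stromal markers 194 to 252 and 253 to 398 TPM, and 12 leukocyte markers 193 to 568.2 and 177 to 192 TPM. None of these 3 ranges overlapped, which happens more easily with 5 and 3 kidneys than with 5 and 5. Of 8 leukocyte markers tested, 3 (*Adgre1*, *Csf1r* and *Cd68*) were fitted below 0. The neutrophil genes *S100a8* and *S100a9* of that list had log2 fold changes of 1.74 and 1.65. The injury markers, at 3131 to 4143 and 2265 to 3299 TPM, did overlap. The part of the cell makeup in the proteasome values was not tested.

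Whether the knockouts differed in their effect was tested by the interaction over all 18 kidneys. No member passed at an adjusted p under 0.05 in edgeR (0 lower and 0 higher), where 0.0377% and 0.0314% of all genes were called with the Myc effect lower and higher. The Myc effect was fitted below the Cxcl12 effect in 43 of 46 members, against 51.0% of all genes, with a median difference of −0.25. At an unadjusted p under 0.05, 16 members had the lower Myc effect, against 6.77% of all genes, and with DESeq2 6 did at an adjusted p under 0.05 (*Psma1*, *Psma5*, *Psma6*, *Psmd5*, *Psmd14* and *Psme3*), against 1.4%. The smallest adjusted p in edgeR was 0.078 for *Psma6*, with a difference of −0.41 ± 0.10 on the log2 scale, followed by *Psma5* with −0.65 ± 0.16 (adjusted p = 0.094). With the deeper kidneys as a term, *Psma5* and *Psma6* passed, but the share of all genes called in that fit is not given here. The cohorts shared no kidney, and each was set against its own controls.

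Genes that work with the proteasome did not pass edgeR's adjusted threshold in either knockout. Of 17 genes of associated proteins, 12 were fitted below 0 in Myc KO, with a median of −0.11, and 4 in Cxcl12 KO, with a median of 0.08. At an unadjusted p under 0.05, 6 were lower and 2 higher in Myc KO, and 0 lower and 2 higher in Cxcl12 KO. *Ubqln4* and *Rad23b*, shuttle factors that carry ubiquitinated proteins to the cap, had values of −0.22 ± 0.06 and −0.21 ± 0.07 in Myc KO, with each KO kidney below each control (adjusted p = 0.089 and 0.12 in edgeR, and 0.0051 and 0.0206 in DESeq2). In Cxcl12 KO, DESeq2 called 0 of the 17. Of 12 genes of ubiquitin supply and delivery, 0 passed in edgeR at an adjusted or unadjusted p under 0.05 or in DESeq2, with medians of 0.01 in Myc KO and 0.11 in Cxcl12 KO. This list includes *Nfe2l1*, at 317 ± 4.96 CPM in Myc KO and 308 ± 18.1 CPM in control kidneys (n = 5 each; log2 fold change 0.04 ± 0.07, adjusted p = 0.74), and *Nfe2l2*, at 0.19 ± 0.12 (adjusted p = 0.36). In Cxcl12 KO they had values of 0.09 ± 0.08 and 0.20 ± 0.12 (adjusted p = 0.67 and 0.51). Of 9 antigen-processing genes, 0 passed in edgeR or DESeq2 and 1 had an unadjusted p under 0.05 in each cohort, with medians of −0.20 and −0.14, and *Psmb9* in Cxcl12 KO had the widest difference, −0.75 ± 0.29 (adjusted p = 0.32).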

How the data were processed

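Whole-kidney RNA of 18 mouse kidneys was sequenced. Per the labels and the study's methods, the authors trimmed reads with Trimmomatic 0.32, aligned them with STAR 2.4.0 to GRCm38 and deposited raw read counts per gene, of which the unstranded column was used; reads mapping to several places or to overlapping genes were not counted. The annotation release is not given in the sources used here; symbols, lengths and coordinates came from GENCODE vM21, which named 45143 of 45706 gene rows. The rows for unmapped, multimapping, unassigned and ambiguous reads (ambiguous, 2.26 to 2.52% of reads) stayed out of library sizes and tests.

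Each cohort, and both together for the interaction, was fitted with edgeR 4.0.16 (quasi-likelihood test, TMM scaling, filterByExpr) over all genes, with Benjamini-Hochberg adjustment and a threshold of 0.05 (R 4.3.3). The study's methods used voom with a ComBat calibration for a batch that the labels do not give, so the batch was not modelled here; limma-voom (limma 3.58.1) and DESeq2 1.42.0 were alternatives, besides other scalings, no filter on low counts, a replicate block, the deeper kidneys as a term or left out, and leaving out each kidney. Fits were tested on simulated data. CPM values are TMM-scaled within a cohort. TPM was computed from the counts and the joined length of all annotated exons of each gene. Same-numbered kidneys were not treated as pairs in the main fits (correlation of deviations from −0.157 to 0.379). No 2 kidneys of a group agreed within sampling noise (33 pairs).

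Members and lists were chosen with earlier results of these data known. *Psme2b* was given its own class after the files were read. Named were members past the threshold, the 5 largest per direction and cohort where fewer than 5 passed, the largest of each class in the Myc cohort, the catalytic genes, *Myc*, *Cxcl12*, *Nfe2l1*, *Nfe2l2*, *Psmb8* and *Psmb9*; other genes were named after their values were seen. The values of 1 gene of the list of associated proteins are not reported here, although it counts in that list's totals.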

Additional observations from a re-analysis of the deposited data

Results flagged for a closer look

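*Psma5* was fitted in opposite directions in the cohorts and passed edgeR's adjusted threshold in neither. Each Myc KO kidney lay below each Myc control, as for 3.74% of all genes. Each Cxcl12 KO kidney lay above each Cxcl12 control, as for 4.75% of all genes. The difference between the KO effects was −0.65 ± 0.16 on the log2 scale (adjusted p = 0.094 in edgeR's interaction test). Over 78 groups of 5 kidneys checked, 5 held a kidney far from the others, and chance alone sets about 1 in 20 apart. Cxcl12 KO kidney 3 was the lowest of its group for *Psme3*, at 154 CPM against 178 to 183 in the other 4, and for *Psmd5*, at 63.0 CPM against 73.6 to 77.3. The same kidney was the highest for *Psmb9*, at 2.98 CPM against 1.18 to 1.69. Myc KO kidney 4 was the lowest for *Psmd5*, at 52.9 CPM against 59.8 to 62.1, and Myc control 4 was the lowest for *Cxcl12*, at 29.6 CPM against 43.0 to 48.2.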

How the results depend on the processing

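The count of 3 members called in Myc KO depended on the processing, whereas 44 or 45 of the 46 were fitted below 0 in every alternative run and their median stayed between −0.26 and −0.18. The count was 5 with upper quartile scaling, 6 with library size alone, 1 with no filter on low counts, 2 with limma-voom (*Psme3* and *Psmg1*), 3 with relative log expression scaling, 11 with DESeq2, 11 with the deeper kidneys as a term and 0 without them. Leaving out single kidneys gave 0 to 7. The shares of all genes called are not given here for the other scalings, the fit without a filter, limma-voom and the leave-one-out fits. With a replicate block, 0 members passed in Myc KO, where 18 of all genes did. The labels do not say that a number marks a shared litter or day, and the study's methods describe the mice as littermates. Same-numbered Myc kidneys had a mean correlation of deviations of 0.06 (5 pairs, from −0.157 to 0.379). So few pairs with such a spread cannot exclude a shared litter or day. In Cxcl12 KO, 0 members passed in every alternative and leave-one-out fit, with medians from −0.01 to 0.09, and leaving out single kidneys gave −0.0005 to 0.07. For the difference between the knockouts, 6 members passed with DESeq2, 2 with the deeper kidneys as a term and 0 in every other alternative. Library size alone moved the median of all genes to −0.04 (Myc) and −0.06 (Cxcl12).

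Of 708 refits of named genes, 649 kept direction and side of the threshold, 35 lost and 18 gained significance, and 6 changed sign. *Psmd11* in Myc KO was −0.0146 with library size alone and ranged from −0.0298 to 0.0551 when single kidneys were left out (below 0 without KO kidney 1 or control 4), *Psme4* ranged from −0.00556 to 0.117 (below 0 without control 5), and *Psme2b* in Cxcl12 KO was 0.14 with the deeper kidneys as a term or left out. Without gene length, only 4 of the 10 members highest in TPM stayed among the 10 highest in CPM. TPM was made from the same counts, so the order of the levels depends on the gene length used.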
